A study of Homo sapiens with 12 samples.

Results

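The Iroquois homeobox genes IRX1 to IRX6 were followed in RNA-Seq data of 201B7, an established human induced pluripotent stem cell (iPSC) line, across 4 culture conditions with 3 libraries each. The 6 members were chosen by gene name out of 60617 genes in the TPM table, and the family was selected with earlier expression results of these same libraries known, so that the values of its members are given here as a description of level and spread and carry no test of their own. All 6 had a row in the count table, which held 58575 usable genes, and 5 passed the filter on low counts. IRX6 did not pass it and enters as TPM and reads only.

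Cells of every condition were harvested on Day 5. Cond 1 was the control, kept in StemFit medium on a laminin fragment coating. Cond 2, labelled low nutrient, received StemFit that had been heated at 56 °C for 30 min. Cond 3, labelled differentiation, was given a serum medium in place of StemFit, made from DMEM with FBS at 10% and both GlutaMax and MEM NEAA at 1%. The paper describes the heated medium as given from Day 2 and the FBS stimulus as given on Day 4. Exposure time and kind of medium therefore cannot be told apart between Cond 2 and Cond 3. Cond 4, labelled physical stimulus, was kept in the control's medium but had 20 strokes of the pipette when the cells were passaged. All libraries come from 1 cell line that carries no engineered allele as far as the labels say, and the replicates are given as wells of 3 plates in the series' design text, and in the paper both as technical replicates and as a triplicate run of the whole experiment. The spread between them may therefore be smaller than that between independent experiments. The labels give skin as the source tissue, which is the tissue the line was derived from. Of the 11 primed pluripotency markers, 10 had a mean of at least 1 TPM in every condition. The exception was POU5F1, which encodes OCT4, at 0.412 to 1.57 TPM over all libraries. By the manual threshold of the paper's immunostaining, most cells of every condition were nonetheless positive for OCT4. By its automated threshold fewer cells were positive, and most cells were negative in some replicates of the low nutrient and differentiation conditions. The paper also reports lower POU5F1 expression in the low nutrient condition, by qPCR and by RNA-Seq. The reason for the low TPM in every condition was not tested, and the low TPM is not read as an absence of OCT4. LIN28A, an RNA-binding protein of undifferentiated cells, lay between 1613 and 2235 TPM in the 12 libraries. The libraries held 16441148 to 21871503 counts each.

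The Iroquois genes encode transcription factors of the TALE class of homeodomain proteins, named after the extended loop between the first helices of the homeodomain, and share a further short motif, the Iro box. In vertebrates they sit in a pair of clusters that arose by duplication, with IRX1, IRX2 and IRX4 in the one and IRX3, IRX5 and IRX6 in the other. They are known for dividing the early neural plate and other sheets of cells into territories, IRX3 as a gene of the neural plate behind the forebrain and of the limb bud, IRX4 as a gene of the ventricular heart muscle, and IRX5 and IRX6 as genes expressed in the retina. The chromosome 5 cluster spanned 1.72 Mb of GRCh38 and the chromosome 16 cluster 1.05 Mb. The genes within each are far apart, with 859 kb between IRX4 and IRX2, 844 kb between IRX2 and IRX1, 644 kb between IRX3 and IRX5 and 389.7 kb between IRX5 and IRX6.

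The sequences upstream of IRX2 and of IRX1 are shown because these were the most abundant member and the member with the largest fold change in Cond 3. In the RefSeq promoter entries for GRCh38, IRX2 and the long noncoding RNA IRX2-DT start 215 bases apart and are transcribed away from each other. The bases between the start sites (chr5:2751678-2751892) are printed on the minus strand, so that they read towards IRX2. For IRX1 the 250 bases before the start site (chr5:3595582-3595831) are printed on the plus strand. Capitals mark CG dinucleotides.
IRX2 to IRX2-DT: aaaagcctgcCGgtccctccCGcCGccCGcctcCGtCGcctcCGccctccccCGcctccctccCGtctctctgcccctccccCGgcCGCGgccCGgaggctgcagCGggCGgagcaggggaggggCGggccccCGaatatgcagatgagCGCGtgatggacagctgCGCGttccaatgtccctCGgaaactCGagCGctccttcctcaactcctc
IRX1: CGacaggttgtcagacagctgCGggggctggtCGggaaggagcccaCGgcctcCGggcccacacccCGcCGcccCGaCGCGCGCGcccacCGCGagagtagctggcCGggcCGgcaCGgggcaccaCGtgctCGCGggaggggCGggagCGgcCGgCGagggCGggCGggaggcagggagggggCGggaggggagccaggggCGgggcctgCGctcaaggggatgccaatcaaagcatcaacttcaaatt
The first run holds 24 CG dinucleotides and the second 29, whereas the median over 35116 RefSeq promoters was 11 in the 250 bases before the start. More CG dinucleotides than 82.3% of all promoters were counted for IRX2 and more than 85.9% for IRX1, and the 3 start sites listed for IRX4 lay between 87.6% and 97.8%. Both printed runs are thus rich in CG, and so are the windows of the low IRX4. The letters CTTTGAT, the core of the motif bound by TCF and LEF factors, were found once in the IRX1 window on the reverse strand, at base 229 of the printed run and 22 bases before the start site, where they overlap a CCAAT motif. Searched on both strands, CTTTGAT was present in 2.26% of all promoters and CCAAT in 32.0%. These motifs were chosen after the sequence was seen, and a match describes letters only. IRX3, IRX5 and IRX6 had no entry in the promoter table.

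IRX2 (ENSG00000170561), on chromosome 5 from 2745845 to 2751677 on the minus strand, was by far the most abundant member. Its TPM, the read count per gene length scaled so that every library sums to the same value, was 199, 209 and 207 in the replicates of Cond 1. In Cond 2 it was 250.2, 272 and 283, and in Cond 3 it was 383, 319 and 349. Cond 4 had 195, 212 and 212 TPM and overlapped Cond 1, whereas every library of Cond 2 and Cond 3 lay above every library of Cond 1, and those of Cond 3 also above those of Cond 2. The mean ± SD of 3 libraries was 205 ± 5.37 TPM for Cond 1, 268 ± 16.8 for Cond 2, 351 ± 31.8 for Cond 3 and 206 ± 9.6 for Cond 4. The log2 fold change of edgeR against Cond 1 was 0.30 (standard error 0.0614) in Cond 2 and 0.75 (standard error 0.0613) in Cond 3, so that IRX2 stayed under the 2-fold limit in both.

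IRX1 (ENSG00000170549), on chromosome 5 from 3595832 to 3601403 on the plus strand, started from a far lower level and had the largest fold change of the family in Cond 3. In Cond 2 its log2 fold change by edgeR, 1.83, was close to the 1.65 of IRX5. When replicate 1 of Cond 2 was left out, the log2 values were 1.88 for IRX1 and 1.89 for IRX5. IRX1 had 6.89, 9.68 and 7.22 TPM in Cond 1 and 27.2, 30.1 and 32.3 TPM in Cond 2. In Cond 3 the values were 56.2, 33.9 and 47.1 TPM, all above those of Cond 2, and in Cond 4 they were 4.67, 8.52 and 10.0 TPM, on both sides of the control. The mean ± SD of 3 libraries was 7.93 ± 1.52 TPM for Cond 1, 29.9 ± 2.57 for Cond 2, 45.7 ± 11.2 for Cond 3 and 7.75 ± 2.77 for Cond 4. On the log2 scale of edgeR the change was 1.83 (95% confidence interval 1.40 to 2.26) in Cond 2 and 2.51 (2.08 to 2.93) in Cond 3. In Cond 4 it was -0.0261, with an interval from -0.50 to 0.45.

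IRX4 (ENSG00000113430), on chromosome 5 from 1877413 to 1887236 on the minus strand, was near the limit of detection, with 6 to 24 reads per library. Its TPM was 0.916, 0.427 and 0.516 in Cond 1, 0.532, 0.824 and 0.558 in Cond 2, 0.549, 1.47 and 1.01 in Cond 3, and 0.711, 1.05 and 1.12 in Cond 4. The libraries of all 4 conditions overlapped, and a difference was not detectable at this depth. For Cond 3 against Cond 1 the interval of the log2 fold change reached from -0.43 to 1.75, and for Cond 4 from -0.49 to 1.71, so that these data bound a change of IRX4 only loosely.

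IRX3 (ENSG00000177508), on chromosome 16 from 54283304 to 54286787 on the minus strand, was the leading member of its cluster. It had 6.18, 6.50 and 4.88 TPM in Cond 1, 14.4, 14.4 and 16.3 TPM in Cond 2, and 34.5, 20.1 and 25.6 TPM in Cond 3. Cond 4 had 5.62, 8.23 and 8.38 TPM, which overlapped the control, whereas the libraries of Cond 1, Cond 2 and Cond 3 formed 3 ranges without overlap. Relative to Cond 1 the log2 fold change was 1.28 (95% confidence interval 0.88 to 1.67) in Cond 2 and 2.17 (1.78 to 2.56) in Cond 3. Between Cond 3 and Cond 2 it was 0.89 (0.53 to 1.24).

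IRX5 (ENSG00000176842), on chromosome 16 from 54930865 to 54934485 on the plus strand, was a low member with a wide spread. It had 1.66, 2.46 and 1.44 TPM in Cond 1, which rest on 24 to 33 reads. Cond 2 had 3.76, 7.51 and 7.15 TPM, Cond 3 had 9.58, 3.15 and 6.95 TPM, and Cond 4 had 2.30, 2.26 and 4.03 TPM. All libraries of Cond 2 and of Cond 3 were above those of Cond 1, but those of Cond 3 lay on both sides of those of Cond 2. Relative to Cond 1 the log2 fold change was 1.65 (95% confidence interval 0.89 to 2.41) in Cond 2 and 1.81 (1.06 to 2.56) in Cond 3, and between Cond 3 and Cond 2 it was 0.16, with an interval from -0.51 to 0.84.

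IRX6 (ENSG00000159387), on chromosome 16 from 55324203 to 55330756 on the plus strand, had at most 6 reads in any library. No read was counted on it in the 3 libraries of Cond 2, in replicate 3 of Cond 1, in replicates 2 and 3 of Cond 3 or in replicate 1 of Cond 4, where a count of 0 allows up to 3 reads. Its highest value was 0.288 TPM, in replicate 1 of Cond 3. All conditions were at or near this floor, so no fold change is given.

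**Figure D1:**
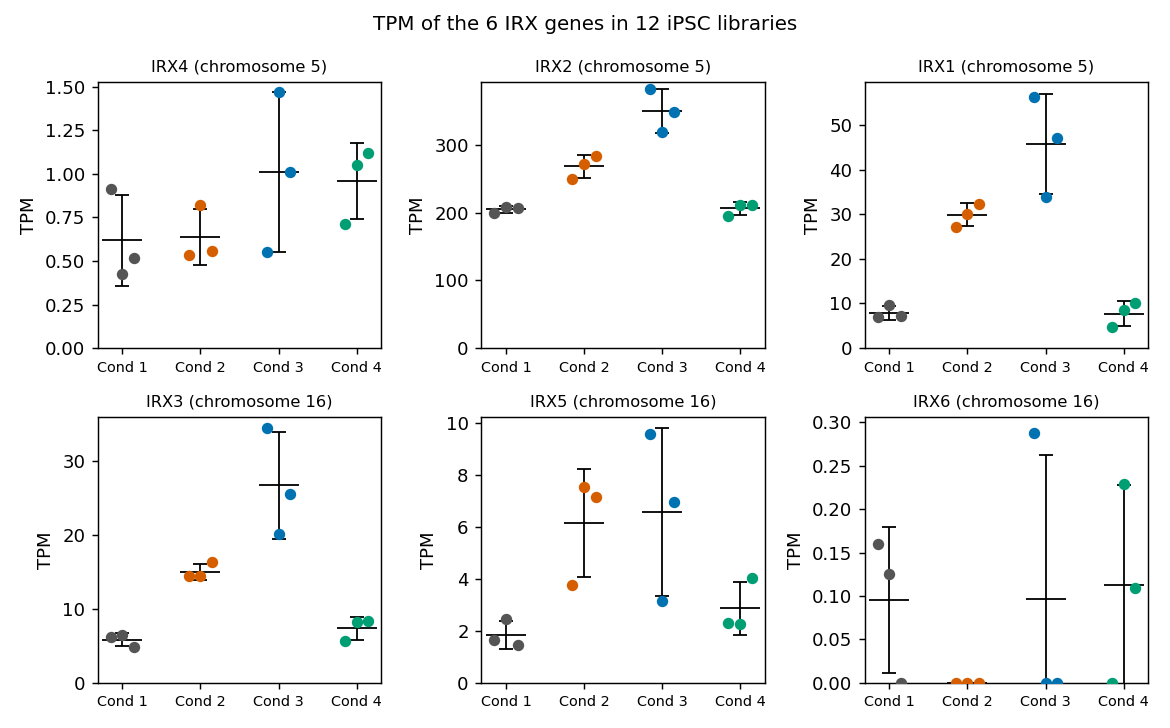
TPM (linear axis from 0, one scale per panel) of the 6 IRX genes in the 12 libraries, one point per library, with the mean as a bar and 1 SD as error bars, which are clipped at 0 for IRX6. IRX2, IRX1 and IRX3 form separate ranges in Cond 1, Cond 2 and Cond 3, whereas IRX4 overlaps in all conditions and IRX6 stays at or under 0.288 TPM.

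By TPM the order of the members was IRX2, IRX1, IRX3, IRX5, IRX4 and IRX6 in each of the 4 conditions. In Cond 1 and Cond 2 every library of a member lay above every library of the next. IRX1 and IRX3 were the only neighbours in this order whose libraries overlapped, in Cond 3 and in Cond 4. The order of the conditions was less uniform. For IRX1, IRX2 and IRX3 Cond 3 was above Cond 2 and Cond 2 above Cond 1 in all libraries, for IRX5 Cond 2 and Cond 3 could not be separated, and for IRX4 and IRX6 no order could be given. The share of all genes whose libraries separate in this way is not given here, so this order describes the members only.

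DEGs were genes with an adjusted p-value under 0.05 (edgeR's quasi-likelihood test, Benjamini-Hochberg over 17747 genes) and a fold change above 2. In Cond 2 against Cond 1 the 3 members IRX1, IRX3 and IRX5 were DEGs, all higher, beside 1.84% of all genes tested that were higher DEGs and 2.50% that were lower ones. With the adjusted p-value alone IRX2 was a further higher member, where 10.8% of all genes were higher and 10.1% lower. In Cond 3 against Cond 1 the same 3 members were higher DEGs, with 4.85% of all genes as higher and 3.31% as lower DEGs, and IRX2 again passed the adjusted p-value alone, as did 19.5% of all genes upwards and 18.8% downwards. No member was a DEG or passed the adjusted p-value in Cond 4, where 0.0113% of all genes were higher DEGs and 0.00563% lower ones, and 0.0225% were higher and 0.00563% lower by the adjusted p-value alone. The count of members in Cond 4 was also 0 with an unadjusted p-value under 0.05 and with DESeq2. In Cond 3 against Cond 2 no member was a DEG, with 5.76% of all genes as higher and 3.01% as lower DEGs, and 3 members, IRX1, IRX2 and IRX3, were higher by the adjusted p-value alone, as were 19.0% of all genes, with 19.2% lower. With limma on log2(TPM + 1) IRX5 was no longer called in Cond 2 (log2 fold change 1.29). IRX1 lost its call between Cond 3 and Cond 2 with limma (0.57) and without replicate 1 of Cond 3 (0.50), and IRX3 became a DEG there without replicate 2 of Cond 3 (1.06). Nothing is read from these counts about the family, because its members were selected with the outcome known. The median log2 fold change of the 5 members tested, against Cond 1, was 1.28 for Cond 2, 1.81 for Cond 3 and 0.34 for Cond 4, beside medians over all genes of 0.000183, -0.00637 and 0.000332. The comparisons against Cond 1 share the control libraries.

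**Figure D2:**
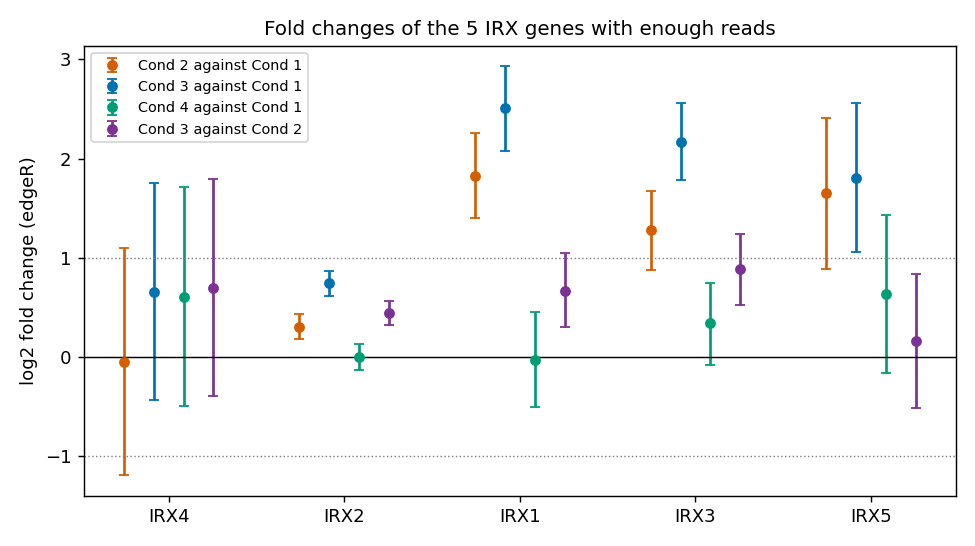
Log2 fold change from edgeR (y axis) of the 5 IRX genes with enough reads in 4 comparisons, with 95% confidence intervals as error bars, a solid line at 0 and dotted lines at the 2-fold limits. The intervals of IRX1, IRX2, IRX3 and IRX5 lie above 0 in Cond 2 and Cond 3 against Cond 1, and all 5 intervals for Cond 4 include 0.

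The clusters differed in level far more than in direction. The summed TPM of the chromosome 5 cluster, as mean ± SD of 3 libraries, was 213 ± 6.34 for Cond 1, 299 ± 19.4 for Cond 2, 397 ± 42.5 for Cond 3 and 215 ± 12.5 for Cond 4. That of the chromosome 16 cluster was 7.8 ± 1.39, 21.2 ± 2.72, 33.4 ± 10.6 and 10.4 ± 2.32 TPM in the same order. The first sum is nearly all IRX2, which made up 92.6% of the TPM of the family in Cond 1 and 81.6% in Cond 3. Without IRX2 the chromosome 5 cluster had 8.55 TPM in Cond 1, 30.5 in Cond 2, 46.7 in Cond 3 and 8.71 in Cond 4, which is nearly all IRX1. Without IRX3 the chromosome 16 cluster had 1.95, 6.14, 6.66 and 2.98 TPM in Cond 1 to Cond 4, mostly from IRX5.

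The chromosome 16 cluster took a larger share of the TPM of the family in both media. Its share was 2.87% to 3.98% in the libraries of Cond 1, 6.14% to 6.92% in Cond 2, 6.15% to 9.16% in Cond 3 and 3.8% to 5.32% in Cond 4. The share of IRX1 moved the same way, from a mean ± SD of 3.58% ± 0.577 over the 3 control libraries to 9.33% ± 0.172 for Cond 2 and 10.5% ± 1.38 for Cond 3, so a larger share was found for members of both clusters and not for the chromosome 16 cluster alone. Each cluster held a member with little or no measurable change, IRX4 in the one and IRX6 in the other, and in each it was the member with the fewest reads.

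**Figure D3:**
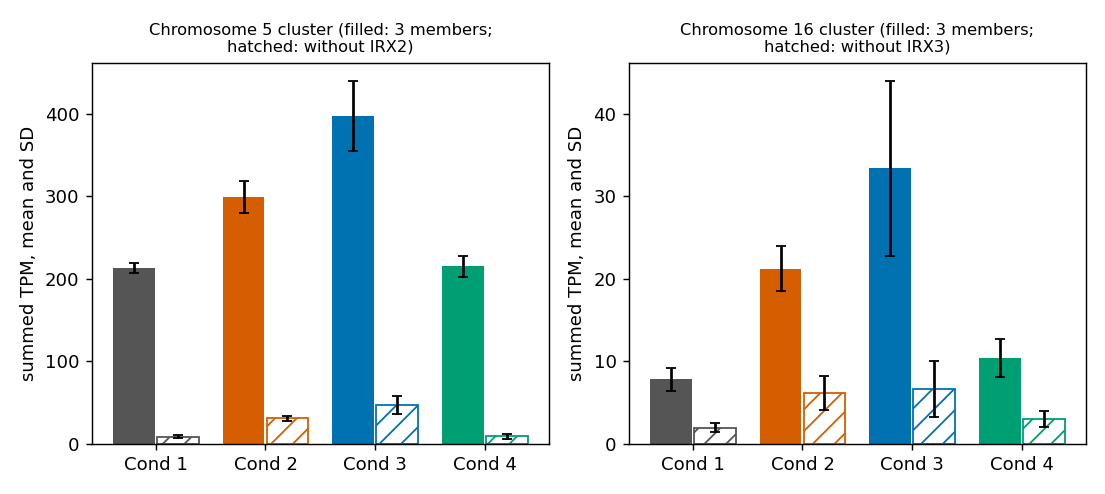
Summed TPM of the 3 members of each cluster (filled bars) and of the cluster without its most abundant member (hatched bars) in the 4 conditions, as mean of 3 libraries with 1 SD, on linear axes from 0 that differ between the panels. The sum of the chromosome 5 cluster falls from 397 to 46.7 TPM in Cond 3 when IRX2 is left out.

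Within Cond 3 the members shared an order of the libraries. Replicate 1 had the highest and replicate 2 the lowest value of IRX1, IRX2, IRX3 and IRX5, with a ratio of the highest to the lowest library of 1.66 for IRX1, 1.20 for IRX2, 1.72 for IRX3 and 3.05 for IRX5. For IRX4, with 10 reads in replicate 1 and 24 in replicate 2, the order was the opposite. Replicate 1 of Cond 3 also had the highest total count of all libraries, and replicate 1 of Cond 4 the lowest (16441148). Within Cond 3 the total was 19189239 for replicate 2 and 18577119 for replicate 3. Among the Cond 1 libraries replicate 2 had the lowest total (16690487). A part of depth in these orders was not tested. In Cond 1 replicate 2 was the highest library of IRX1, IRX2, IRX3 and IRX5, within a narrower range of 1.05 for IRX2 to 1.71 for IRX5, and in Cond 4 replicate 1 was the lowest of IRX1, IRX2 and IRX3.

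The direct neighbours of the clusters gave a measure that the choice of members did not use. Besides the members, 44 annotated genes lay in the chromosome 5 cluster or within 500 kb of it, of which 10 had a mean of at least 0.5 TPM in some condition and enough reads for the test. At the chromosome 16 cluster there were 40, of which 5 did. IRX2-DT (ENSG00000186493, named C5orf38 in the files), the divergent partner of IRX2 whose start site is shown above, had 54.7, 62.9 and 66.2 TPM in Cond 1, 87.1, 95.8 and 91.8 in Cond 2, 113, 94.0 and 111 in Cond 3, and 58.7, 63.5 and 76.5 in Cond 4. By edgeR, whose adjusted p-values over all genes tested are given from here on, it rose by 0.49 on the log2 scale in Cond 2 (standard error 0.101, adjusted p = 0.000884) and by 0.76 in Cond 3 (standard error 0.0999, adjusted p = 2.28e-06). As a share of the IRX2 TPM of the same library its TPM was, as mean ± SD of 3, 29.9% ± 2.27 for Cond 1, 34.1% ± 1.52 for Cond 2, 30.2% ± 1.33 for Cond 3 and 32.0% ± 3.53 for Cond 4. The ratio in Cond 3, 29.4% to 31.8%, lay within the range of Cond 1, 27.5% to 32.1%, and that in Cond 2, 32.4% to 35.2%, just above it.

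CRNDE (ENSG00000245694), a long noncoding RNA transcribed away from IRX5, did not follow its neighbour. It had 7.71, 6.68 and 9.41 TPM in Cond 1, 9.83, 10.2 and 9.65 for Cond 2, and 5.70, 6.18 and 6.26 for Cond 3. It fell by 0.42 on the log2 scale in Cond 3 (standard error 0.108, adjusted p = 0.00324), where IRX5 was higher in all libraries, and its log2 fold change in Cond 2 was 0.23 (adjusted p = 0.14). MMP2, which encodes a gelatinase and lies beyond IRX6, fell by 0.39 on the log2 scale in Cond 2 (standard error 0.0787, adjusted p = 0.000742) and by 0.63 in Cond 3 (standard error 0.0793, adjusted p = 1.38e-06).

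FTO, an RNA demethylase gene on the other side of IRX3 that is known for holding distant enhancers of IRX3 in its introns, rose by 0.26 on the log2 scale in Cond 2 (standard error 0.0755, adjusted p = 0.0168). Its log2 fold change in Cond 3 was 0.0653 (adjusted p = 0.54), with 8.66, 8.68 and 7.89 TPM beside 7.82, 7.79 and 8.03 TPM in Cond 1. NDUFS6, a subunit of mitochondrial complex I next to IRX4 and the most abundant neighbour, had a log2 fold change of -0.0253 in Cond 2 (adjusted p = 0.832) and 0.0171 in Cond 3 (adjusted p = 0.862). Among the other neighbours, MRPL36, a mitochondrial ribosomal protein gene, rose by 0.41 in Cond 3 (adjusted p = 0.0103), LPCAT1, an enzyme of phospholipid remodelling, fell by 0.31 on the log2 scale in Cond 2 (adjusted p = 0.0445), and the pseudogene PPP4R2P5 rose by 0.87 in Cond 2 (adjusted p = 0.0494). The DEGs among the neighbours against Cond 1 were noncoding genes of low level in Cond 3, LINC03067 at -1.20 (adjusted p = 0.0234) and ENSG00000260066 at 2.49 (adjusted p = 0.00357). SLC6A2, the noradrenaline transporter gene, passed the limit of 0.5 TPM through Cond 2 alone, with at most 36 reads in a library, and its means were 0.246, 0.696, 0.0856 and 0.269 TPM in Cond 1 to Cond 4. SDHAP3, PDCD6P1, ENSG00000249541 and LPCAT2 did not pass the test in any of the 4 comparisons.

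**Figure D4:**
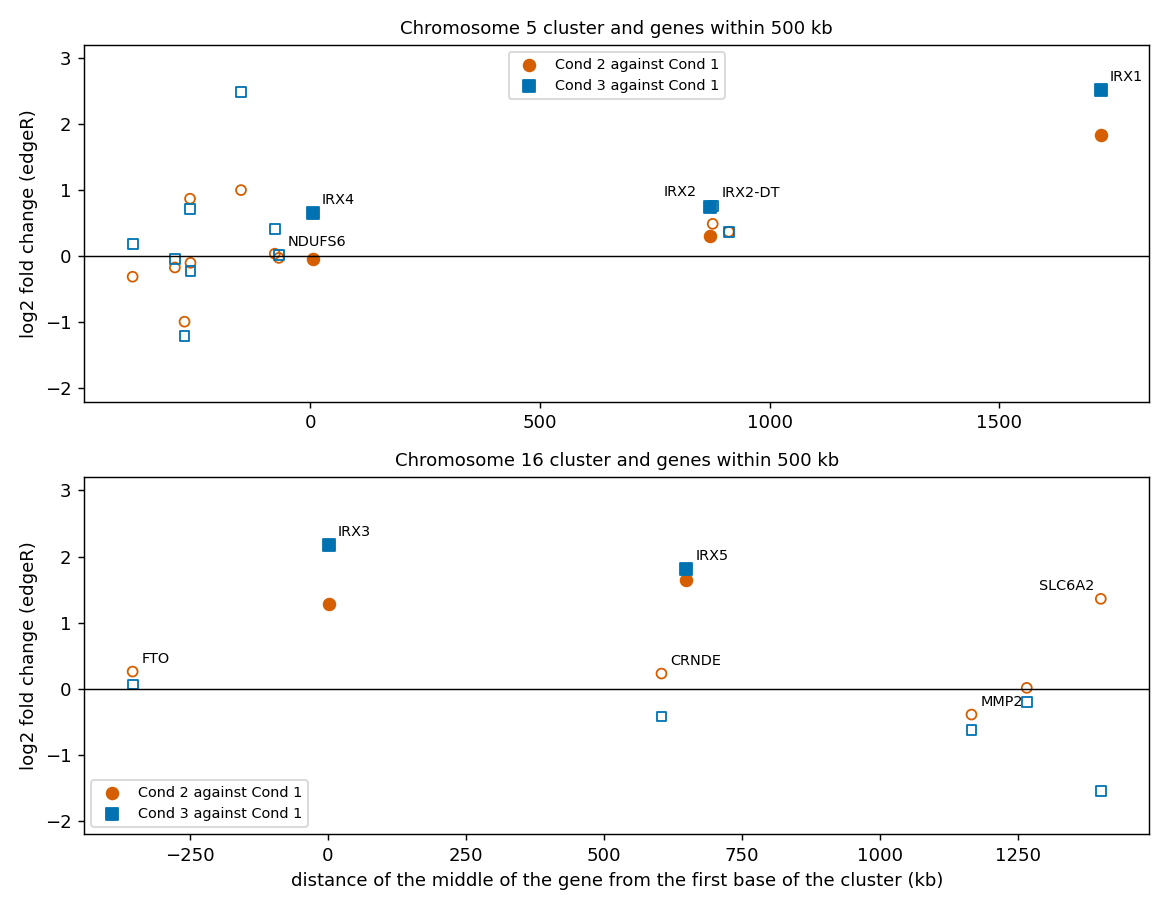
Log2 fold change from edgeR (y axis) in Cond 2 (orange circles) and Cond 3 (blue squares) against Cond 1 of the tested genes of each cluster and within 500 kb of it, by the distance of the middle of each gene from the first base of the cluster in kb. Filled symbols are IRX genes and open symbols are neighbours, with IRX2-DT beside IRX2 at 0.76 in Cond 3 and CRNDE at -0.42 beside IRX5 at 1.81.

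The families most closely related to the Iroquois genes, the other TALE homeobox genes, did not share one direction. Of 12 such genes, 9 were tested. In Cond 2, 1 was a higher DEG and 0 were lower, beside 1.84% and 2.50% of all genes tested. By the adjusted p-value alone 3 were higher and 0 lower, beside 10.8% and 10.1% of all genes. In Cond 3, 2 were higher and 1 was a lower DEG, beside 4.85% and 3.31%. By the adjusted p-value alone 3 were higher and 2 lower there, beside 19.5% and 18.8%. In Cond 4 none of the 9 passed by edgeR, with 1, PBX4, at an unadjusted p-value under 0.05. The median log2 fold change of the 9 was 0.17 in Cond 2 and 0.0594 in Cond 3.

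PKNOX2, a partner of PBX proteins, had 1.50, 2.17 and 1.70 TPM in Cond 1, 5.87, 4.85 and 4.51 in Cond 2, and 5.94, 5.67 and 6.40 in Cond 3. It rose by 1.43 on the log2 scale in Cond 2 (standard error 0.224, adjusted p = 4.73e-05) and by 1.72 in Cond 3 (standard error 0.222, adjusted p = 1.78e-06), and in Cond 4 its log2 fold change was 0.11 (adjusted p = 0.977). MEIS2, another PBX partner, rose by 2.65 in Cond 3 (standard error 0.506, adjusted p = 0.000213) from a mean of 0.159 to 1.02 TPM. MKX, the Mohawk gene of tendon and the TALE gene closest to the Iroquois genes in sequence, went the other way from IRX1 and IRX3, with 4.15, 3.77 and 3.53 TPM in Cond 1 and 0.914, 1.47 and 1.24 TPM in Cond 3. It fell by 1.69 on the log2 scale in Cond 3 (standard error 0.294, adjusted p = 7.94e-05). TGIF1, a repressor of TGF-beta signalling, fell by 0.61 on the log2 scale in Cond 3 (standard error 0.0548, adjusted p = 8.25e-09).

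PBX3, a cofactor of other homeodomain proteins, was expressed at a mean of 33.2 TPM in Cond 1. It rose by 0.28 on the log2 scale in Cond 2 (adjusted p = 0.0411) and by 0.39 in Cond 3 (adjusted p = 0.00238). MEIS3, PBX4 and TGIF2 did not pass the test against Cond 1. MEIS1 and PBX2 had too few reads, and PKNOX1 had no count row.

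Genes of the territories and signals with which the Iroquois genes are usually studied moved in a different pattern in each medium. Beside the list counts here and below stand the shares of all genes tested. These were 1.84% higher and 2.50% lower DEGs in Cond 2 and 4.85% and 3.31% in Cond 3, each against Cond 1. Between Cond 3 and Cond 2 they were 5.76% and 3.01%. By the adjusted p-value alone they were 10.8% and 10.1% in Cond 2 and 19.5% and 18.8% in Cond 3. Of the 12 tested genes of the anterior neural plate and forebrain, 8 were higher DEGs and 1 a lower one in Cond 2, but 2 were higher and 2 lower in Cond 3, with median log2 fold changes of 2.41 and 0.12. In Cond 3 against Cond 2, 8 of the 12 were lower DEGs. SIX3, a forebrain regulator, had a mean of 2.39 TPM in Cond 1, 158 in Cond 2 and 2.70 in Cond 3. FEZF1, another forebrain regulator, had 5.99, 128 and 60.5 TPM. LHX5, a further gene of the early forebrain, had 7.93, 262 and 32.3 TPM. The 2 lower DEGs of Cond 3 were EMX1, at 3.92, 0.751 and 0.808 TPM, and SIX6, at 1.05, 0.998 and 0.0781 TPM.

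For the midbrain, hindbrain and their boundary, 4 of 15 genes had enough reads. GBX2, a gene of the anterior hindbrain, had 7.15 TPM in Cond 1, 0.426 in Cond 2 and 0.269 in Cond 3, and its log2 fold change was -4.17 and -4.78 (adjusted p = 5.17e-05 and 1.02e-05). In Cond 2, 1 of the 4 was a higher DEG, FGF8, and 2 were lower, and in Cond 3, 1 was higher and 3 were lower. Of 8 tested general neural progenitor genes 1 was a higher DEG in Cond 2 and 1 in Cond 3, and by the adjusted p-value alone 6 were higher and 1 was lower in Cond 2 and 5 were higher and 2 lower in Cond 3.

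Of 10 tested surface ectoderm and placode genes, 7 were higher DEGs in Cond 2, and in Cond 3 4 were higher and 1 was lower. Among the higher ones in Cond 3, DLX3 and TFAP2A had means of only 0.487 and 0.692 TPM there. The summed TPM of the 13 listed genes was 24.8 to 32.7 in Cond 1, 55.7 to 96.9 in Cond 2 and 23.7 to 27.3 in Cond 3. DLX5, a homeobox gene of the border of the neural plate, had a mean of 0.0694 TPM in Cond 1, 13.7 in Cond 2 and no read in Cond 3. The median log2 fold change of the list in Cond 2 was 3.35, and 2.50 when the 2 genes without a read in one of the conditions were set to a bound with 3 reads. In Cond 3 the medians were 0.90 and 0.12 with 3 such genes.

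Among the signalling lists, BMP targets had 5 higher DEGs of 9 in Cond 2, with ID4 at 35.8 TPM in Cond 1 and 149.8 in Cond 2, and 2 of 9 in Cond 3. Of 8 retinoic acid genes 2 were higher DEGs in Cond 2, CYP26A1 and CYP26C1, which encode enzymes that break down retinoic acid, and 0 in Cond 3, where 2 passed the adjusted p-value alone and 3 the unadjusted one. Of 11 WNT targets 1 was a higher DEG in Cond 2 and 3 were in Cond 3, among them TNFRSF19 in both. FGF and ERK targets had 2 lower DEGs of 11 in Cond 2 and 7 in Cond 3, with DUSP6, a phosphatase that acts on ERK, at 71.3, 35.0 and 1.84 TPM in Cond 1, Cond 2 and Cond 3. The median log2 fold change of this list was -0.28 in Cond 2 and -1.27 in Cond 3. In Cond 4 edgeR called no gene of these 4 lists, and 2, ID1 and ID4, had an unadjusted p-value under 0.05.

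Markers of other cell types were set beside the Cond 3 values, since that medium holds serum. The summed TPM of 10 fibroblast markers was between 421 and 448 in Cond 1, 259 and 309 in Cond 2, 586 and 623 in Cond 3 and 380.4 and 402 in Cond 4. Of 8 tested, 3 were higher and 1 was a lower DEG in Cond 3, with COL1A2, a collagen chain, at 47.0 TPM in Cond 1 and 109.8 in Cond 3, POSTN, a matrix protein, at 0.173 and 2.50 TPM, and THY1 at 141 and 48.9 TPM. The median log2 fold change of the 8 in Cond 3 was 0.94. Of the 10 markers, LUM and DCN, matrix proteoglycans of fibroblasts, were at or under 0.159 and 0.0337 TPM in every library. The sum was thus higher where IRX1, IRX2 and IRX3 were highest and lower in Cond 2, where they were also above the control, and its part in their levels was not tested. Of the cardiomyocyte markers, 0 of 6 tested were DEGs by edgeR in Cond 2 or Cond 3, with 2 and 1 at an unadjusted p-value under 0.05. Of the mesendoderm markers 1 of 3 was, TBXT at a mean of 1.12 TPM in Cond 3, and FOXA2 had no read in any library. Of 11 primed pluripotency markers 2 were lower DEGs in Cond 2, NANOG and TDGF1, and 1 was in Cond 3, NANOG. In bulk RNA fewer expressing cells and less RNA per cell cannot be told apart, nor can more cells and more RNA per cell for the IRX genes.

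The genes whose 3 log2 fold changes against Cond 1 were closest to those of a member, by the root mean square difference over 12896 protein-coding genes, were listed as a description. For IRX1 they were MC5R, a melanocortin receptor, RHBDL3 and EDN3, an endothelin, at distances of 0.24, 0.253 and 0.257. For IRX3 they were WFIKKN2, GRK5 and REEP1, at 0.136 to 0.152, and for IRX5 FGF4, CASZ1 and GFAP, at 0.154 to 0.199. IRX2, with its small changes, had many near matches, led by MTG1, ARHGEF4 and NYNRIN at 0.0191 to 0.0201, and IRX4 had ITGB1BP2, IL17D and TMEM62. Between members the smallest distance was 0.343, between IRX3 and IRX5 of the same cluster, and that between IRX1 and IRX3 of different clusters was 0.43. IRX1 and IRX2 of the same cluster were 1.35 apart. Likeness over 3 comparisons that share the control libraries is a weak measure.

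Of the 31-base words of the transcripts of each member, between 1.29% and 3.7% also occur in transcripts of other genes, the other IRX genes among them. These shares count exact words only. IRX2 had 3141 to 7978 reads per library, IRX4 6 to 24 and IRX6 at most 6. Whether reads of IRX2 were counted on these low members was not tested. The pseudogene IRX1P1 had 1 read in all libraries together. Genes annotated on the opposite strand overlap IRX1, IRX4, IRX6 and IRX3, and had no read for IRX1 and IRX4 and at most 2 for IRX6. ENSG00000283689, which overlaps IRX3 by 1184 bases, had at most 10 reads, beside 78 to 620 on IRX3. The libraries were strand-specific. The strand setting of the counting and its treatment of reads with several matches are not given in the sources used here.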

How the data were processed

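RNA-Seq was measured in 12 libraries of 201B7. The authors made poly(A) strand-specific libraries, trimmed reads with cutadapt 4.1 and fastp 0.20.1 after bcl2fastq 2.20.0.422, aligned them to GRCh38 with HISAT2 2.1.0 and counted them on genes with featureCounts (versions as in the submitters' processing notes). They deposited read counts per gene as whole numbers without normalization, and TPM computed from these counts and the deposited gene length. Of 58580 lines of the count table, 5 were not whole gene rows and were left out, and TPM-only genes were not tested. Coordinates came from GENCODE release 44.

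The family and all gene lists were chosen with earlier results of these data known. All 4 conditions entered a single edgeR model (edgeR 4.0.16 under R 4.3.3, TMM factors, quasi-likelihood F-test), after filterByExpr with a minimum count of 10. The test was also run on simulated counts, with a single fixed spread between libraries and changes planted only in genes of higher counts. That run is no check for low counts such as those of IRX4 and IRX6. Confidence intervals cover the spread between libraries. With 3 libraries a side the smallest exact permutation p is 0.1, so none is given. Low counts limit IRX4, IRX5 and IRX6. Replicates differed by more than sampling noise (chi-square per gene 4.1 to 9.78) and were kept apart. Named were the members, neighbours within 500 kb with at least 0.5 TPM in any condition, the 3 nearest genes by fold change, other TALE genes, and the up to 3 DEGs of largest change per list and condition, of which the text gives some. Alternatives were DESeq2 1.42.0, its size factors in edgeR, no filter, genes above a TPM of 1 throughout, limma 3.58.1 on log2(TPM + 1) and log2(TPM + 0.1), the 6 libraries compared alone, a replicate block, no fold limit, and each library left out. Values of some single genes of the lists are not reported here.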

Additional observations from a re-analysis of the deposited data

How the results depend on the processing

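The counts of IRX members called as DEGs against Cond 1 (3 in Cond 2, 3 in Cond 3 and 0 in Cond 4) stayed within 1.5 times under every alternative run, at 2 to 4 in Cond 2 and 3 to 4 in Cond 3. In Cond 3 against Cond 2 the count moved from 0 to 1 without replicate 2 of Cond 3 (IRX3), a range of 0 to 1 over the fits that left out 1 library. With no limit on the fold change 3 members passed the adjusted p-value there. With the replicate block the counts were 3, 3, 0 and 0. Same-numbered libraries did not deviate together (correlations -0.0131 to 0.0379), so the number was not taken as a pairing.

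IRX1 between Cond 3 and Cond 2 lost its call with limma on log2(TPM + 1) (0.57) and log2(TPM + 0.1) (0.58), and ranged from 0.50, without replicate 1 of Cond 3, to 0.85 over left-out libraries. IRX5 in Cond 2 lost it with limma on log2(TPM + 1) (1.29, adjusted p = 0.0503). The cause was not tested. Values that were not called changed sign. For IRX2 in Cond 4 these were 0.00248 under the filter on TPM, 0.0105 and 0.0106 with limma, 9.91e-05 in the 6 libraries compared, and -0.0298 to 0.0366 over left-out libraries. For IRX4 in Cond 2 limma gave 0.0237 and 0.0735, and left-out libraries -0.27 to 0.33. Left-out libraries gave -0.26 to 0.22 for IRX1 in Cond 4 and -0.22 to 0.49 for IRX5 between Cond 3 and Cond 2. IRX4 has no value under the TPM filter. IRX6 was tested without the low-count filter and with limma and was not called there.

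Leaving out the most abundant member took the chromosome 5 sum to 8.55, 30.5, 46.7 and 8.71 TPM and the chromosome 16 sum to 1.95, 6.14, 6.66 and 2.98 TPM in Cond 1 to Cond 4.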
